A study of Homo sapiens with 4 samples.

Results

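The HOX genes of the HOXA, HOXC and HOXD clusters were followed in 4 sorted subpopulations of the PC14 line, which derives from a human non-small-cell lung carcinoma. The set comprised 30 listed genes: 28 homeobox genes of the 3 clusters and the cluster RNAs HOTAIR and HOTAIRM1. Of these, 19 had at least 1 probe set, the group of short probes that reads a transcript on an Affymetrix array, carrying that single gene symbol in the platform annotation, out of 19775 genes with such a probe set in all. HOXA3, HOXA4, HOXA5, HOXA6, HOXA7, HOXA9, HOXA10, HOXA11, HOXA13, HOXD3 and HOTAIRM1 had none and were not analysed here as single genes, so that HOXA2 alone stands for the HOXA homeobox genes.

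PC14 cells were sorted by flow cytometry first on E-cadherin, the adhesion protein of epithelial cells, and then on green fluorescence from a lentivirus carrying the CD133 P1 promoter in front of a GFP gene. The 4 groups were E-cadherin-high CD133-high, E-cadherin-low CD133-high, E-cadherin-high CD133-low and E-cadherin-low CD133-low cells, and this order is kept wherever 4 values are listed. All groups came from a single cell line and carried the reporter, and each gave 1 array of total RNA. No value therefore has a replicate error, the calls rest on fold size alone, and the only test is an additive fit of both markers with 1 residual degree of freedom. "CD133-high" therefore names reporter fluorescence; the probe set of PROM1, which encodes CD133, read 12.1, 10.3, 29.7 and 4.8, below the floor on each array.

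HOX genes encode homeodomain transcription factors that give cells a positional identity along the body axis. They lie in clusters in which gene order follows the order of expression from head to tail, and genes at the same place in different clusters, the paralogs, bind similar DNA with TALE-class partners of the PBX and MEIS families. Polycomb complexes keep clusters silent, Trithorax complexes and retinoic acid signalling open them, and many HOX genes are active in adult lung and in lung tumours.

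Signals are the deposited MAS5 intensities, which had been scaled on each array. The floor of an array was the median of its probe sets other than controls, and it lay at 53.7, 60.3, 57.4 and 57.0 on the 4 arrays. A gene was read from whichever of its probe sets had the highest mean log2 intensity. It counted as measured when any of the 4 arrays exceeded the floor, as was the case for 14083 genes, 16 of the 19 HOX genes among them. In all, 13 of the 19 were above the floor on all 4 arrays. HOTAIR, HOXC12 and HOXD12 were below it on all 4, with intensities of 1.2 to 15.0, 5.6 to 51.4 and 1.5 to 2.2. Levels are compared between arrays for 1 probe set, never between probe sets.

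The sort itself was visible for E-cadherin. CDH1, the E-cadherin gene, read 5548, 347, 3546 and 528. Among epithelial markers EPCAM (12326, 6554, 10717 and 3760), KRT8 (1334, 1081, 1493 and 406) and KRT18 were above the floor on all arrays. KRT19 was below it on all. Of the mesenchymal markers, VIM read 12448, 20200, 1740 and 12938, and FN1 read 91.5, 69.3, 94.8 and 42.6. VIM was 7.15-fold higher in CD133-high cells of the E-cadherin-high class and 1.56-fold higher in the E-cadherin-low class. The 2 CD133 pairs were thus unlike in VIM, and its part in the HOX values was not tested. Of 8 leukocyte, endothelial and stromal markers, 7 had a probe set and 4 were measured. Their summed intensity was 3567 and 3252 in CD133-high cells against 2221 and 2333 in CD133-low cells. The sum adds intensities of different probe sets and does not rank the genes. Its largest part was the probe set used for COL1A1, a collagen gene (2087, 1935, 1636 and 1614). Without COL1A1 the sums were 1480.0 and 1317 against 585 and 719, and most of each was the PTPRC probe set used. That was the brightest of 5 PTPRC probe sets, and the others are not given here. PTPRC, the leukocyte surface phosphatase CD45, was higher in CD133-high cells (1246 and 1102 against 346 and 505), whereas PECAM1, an endothelial marker, read 133, 120.0, 151 and 174, CD3E did not exceed 62.5 and LYZ, CDH5 and PDGFRB were below the floor on all arrays. The part of this difference in the HOX values was not tested.

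In CD133-high cells, 6 of the 16 measured HOX genes were lower by at least 2-fold in both matched pairs, and 0 were higher. They were HOXA2, HOXC9, HOXD1, HOXD10, HOXD11 and HOXD13. The background over all 14083 measured genes was 1.12% lower and 2.45% higher by the same rule, against 37.5% lower among the HOX genes. This share includes HOXA2, which exceeded the floor only on the CD133-low arrays and could not have been called higher. A matched pair here is a CD133-high and a CD133-low array with the same E-cadherin class, so each E-cadherin class supplies 1 pair. In these bulk RNA samples, fewer cells expressing a gene and less RNA per cell cannot be told apart. An additive limma fit of both markers, with 1 residual degree of freedom and Benjamini-Hochberg adjustment, called 1 of the 16 lower (HOXA2) and 0 higher, against 0.199% and 0.192% of all measured genes.

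The 250 bases before the annotated start of 5 of the 6 lower genes are printed here from RefSeq (GRCh38.p14). They were printed because these genes moved together in the CD133 comparison. HOXC9, the other lower gene, had no window in the promoter set used. Set beside these is the same window of HOXD8, which was not called but was 2.29-fold lower in the E-cadherin-high pair. Capitals mark matches on either strand to any of 5 motifs that were chosen after the data had been seen. The homeodomain core was searched as TAATTA. The joint site of PBX and HOX proteins was searched as TGATTNAT. The motif of MEIS and PKNOX proteins was searched as TGACAG. The half-site of nuclear receptors, to which the retinoic acid receptors belong, was AGGTCA. The TATA box, which positions the transcription machinery, was TATAAA. The 5 motifs do not contain one another.
HOXA2, chr7:27102684-27102933, strand -: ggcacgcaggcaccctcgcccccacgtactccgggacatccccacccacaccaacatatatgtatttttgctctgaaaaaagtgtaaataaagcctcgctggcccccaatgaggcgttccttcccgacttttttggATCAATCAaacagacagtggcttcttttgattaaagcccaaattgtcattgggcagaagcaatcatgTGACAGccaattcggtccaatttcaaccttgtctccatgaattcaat
HOXD1, chr2:176188418-176188667, strand +: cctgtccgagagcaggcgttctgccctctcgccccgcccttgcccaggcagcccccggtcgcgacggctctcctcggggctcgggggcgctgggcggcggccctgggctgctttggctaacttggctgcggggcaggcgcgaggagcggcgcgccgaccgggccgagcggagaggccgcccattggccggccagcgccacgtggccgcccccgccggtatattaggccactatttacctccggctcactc
HOXD8, chr2:176129455-176129704, strand +: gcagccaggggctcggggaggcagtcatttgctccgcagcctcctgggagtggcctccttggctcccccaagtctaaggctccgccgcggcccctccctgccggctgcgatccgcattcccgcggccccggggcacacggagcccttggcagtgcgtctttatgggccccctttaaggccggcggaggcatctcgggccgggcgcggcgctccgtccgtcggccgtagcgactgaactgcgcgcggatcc
HOXD10, chr2:176116528-176116777, strand +: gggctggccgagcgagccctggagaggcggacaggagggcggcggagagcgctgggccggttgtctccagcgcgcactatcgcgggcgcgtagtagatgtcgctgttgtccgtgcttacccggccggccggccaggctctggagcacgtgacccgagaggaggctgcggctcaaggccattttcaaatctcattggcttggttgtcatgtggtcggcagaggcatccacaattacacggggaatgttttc
HOXD11, chr2:176107030-176107279, strand +: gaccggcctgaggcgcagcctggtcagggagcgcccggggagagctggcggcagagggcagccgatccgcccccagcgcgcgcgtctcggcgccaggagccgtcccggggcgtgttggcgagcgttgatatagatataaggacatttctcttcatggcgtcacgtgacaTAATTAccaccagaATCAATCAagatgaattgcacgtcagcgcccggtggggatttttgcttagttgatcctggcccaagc
HOXD13, chr2:176092471-176092720, strand +: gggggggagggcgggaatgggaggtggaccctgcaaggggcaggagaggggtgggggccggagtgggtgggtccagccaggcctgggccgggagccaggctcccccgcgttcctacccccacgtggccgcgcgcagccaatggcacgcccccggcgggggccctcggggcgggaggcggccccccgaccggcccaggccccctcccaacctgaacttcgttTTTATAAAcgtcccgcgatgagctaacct

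HOXA2 held TGATTNAT, read as ATCAATCA on the printed strand, with its first base 114 bases before the start, and TGACAG at 47 bases. HOXD11 held TAATTA at 81 bases and TGATTNAT at 67 bases, again as ATCAATCA. HOXD13 held TATAAA on both strands, overlapping, at 29 and 27 bases. HOXD1, HOXD8 and HOXD10 held none of the 5 motifs in this window. Among 35116 RefSeq promoter windows of the same length, 4.35% held the homeodomain core, 2.48% the joint site of PBX and HOX proteins, 13.0% the MEIS and PKNOX motif, 12.1% the nuclear receptor half-site and 10.7% the TATA box. The window of HOXA2 had 8 CpG dinucleotides and 47.2% G and C. HOXD4, which was not called and is not printed, had 4 and 47.6%. HOXD1 had 31, HOXD8 28, HOXD10 23, HOXD11 23 and HOXD13 21 CpG dinucleotides, against a median of 11 over all windows. HOXC4 and HOXC5, which were not called and have the same window, had 14. HOXD12, which was below the floor, had 16. A match is a stretch of letters and not a measured binding site.

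HOXA2, which patterns the hindbrain and the second pharyngeal arch, had intensities of 3.0, 23.1, 686.5 and 790.3. Both CD133-high arrays lay below the floor and both CD133-low arrays lay far above it. HOXA2 was thus measured only through the CD133-low arrays and could not have been called higher. The ratio is therefore a bound, and HOXA2 was at least 12.8-fold lower in the E-cadherin-high pair and at least 13.1-fold lower in the E-cadherin-low pair. HOXA2 had the lowest CD133 ratio of the 16 measured HOX genes in both pairs. The limma fit that called HOXA2 also used values set to the floor. Its 2 CD133-high values, 3.0 and 23.1, were both replaced, so part of the likeness of its 2 pairs comes from the floor.

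HOXD10, a gene of the limb and lumbar spinal cord, read 377, 892, 2301 and 2971. The CD133-high arrays were both below the CD133-low arrays, by 6.10-fold among E-cadherin-high and 3.33-fold among E-cadherin-low cells. HOXD13, which shapes the digits and the genital tubercle, read 355, 326, 1004 and 988. Here each CD133 class was nearly the same in both E-cadherin classes, and the ratios were 2.83-fold and 3.03-fold lower. HOXD11, which acts with its paralogs in the forearm and kidney, read 138, 166, 324 and 506, which is 2.35-fold and 3.05-fold lower in CD133-high cells.

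HOXD1, the most anterior gene of its cluster, read 180.1, 335, 1052 and 694. All values of CD133-high cells lay below those of CD133-low cells, but the ratio was 5.84-fold lower among E-cadherin-high and only 2.07-fold lower among E-cadherin-low cells. HOXC9, which specifies thoracic motor neurons, read 182, 170.4, 490 and 596, or 2.69-fold and 3.50-fold lower in CD133-high cells. It was the single HOXC gene of 8 measured that passed the rule.

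**Figure D1:**
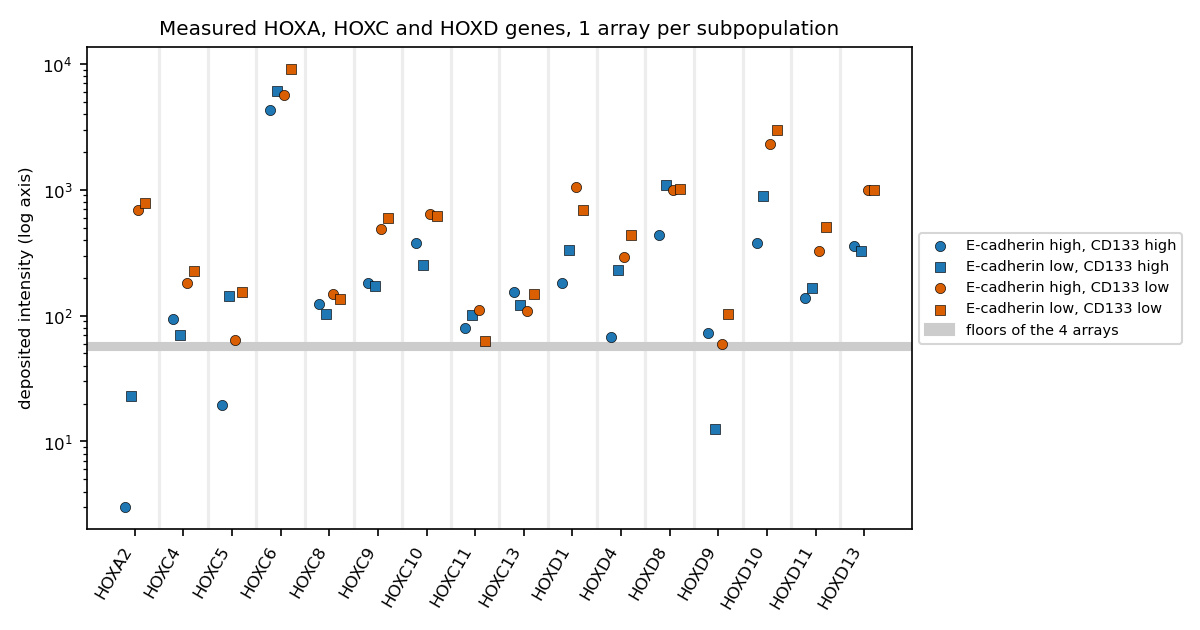
Deposited intensity (log axis) of each of the 16 measured HOX genes on the 4 arrays, 1 point per subpopulation, with the floors as a grey band. HOXA2 stands at 3.0 and 23.1 in CD133-high cells, under the grey band, and at 686.5 and 790.3 in CD133-low cells; heights are not comparable between genes.

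The other HOXD genes differed between the 2 pairs. HOXD4, an anterior gene used in the hindbrain and vertebrae, read 68.2, 230.0, 292.5 and 434, so that it was 4.29-fold lower in CD133-high cells of the E-cadherin-high class and 1.89-fold lower in the E-cadherin-low class. HOXD8, a trunk gene, read 435, 1094, 996 and 1014. Its lower value was confined, among these 4 arrays, to E-cadherin-high CD133-high cells, with log2 ratios of -1.19 and 0.11. HOXD9 lay near the floor, with 73.2, 12.5, 59.9 and 102.7. The probe set shared by HOXD3, HOXD4 and LOC401021 that was above the floor read 11.2, 87.3, 88.0 and 182, with log2 ratios of -0.71 as a bound and -1.06.

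The CD133 log2 ratio among E-cadherin-low minus that among E-cadherin-high cells was 1.18 for HOXD4, 1.31 for HOXD8, 1.5 for HOXD1 and 0.87 for HOXD10. It was -0.38 for HOXD11, -0.10 for HOXD13 and -1.06 for HOXD9, which was near the floor and had a bound in the E-cadherin-low pair. The ratio was thus lower among E-cadherin-high cells for HOXD1, HOXD4, HOXD8 and HOXD10 and lower among E-cadherin-low cells for HOXD9, HOXD11 and HOXD13. With 1 array per group these differences have no error and were not tested.

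In the HOXC cluster, HOXC4 read 93.4, 70.5, 182 and 228, with log2 ratios of -0.96 and -1.69, just short of the 2-fold line in 1 pair. HOXC10, a gene of hindlimb motor neurons, read 378, 254, 637 and 622, with ratios of -0.75 and -1.29. In both genes each CD133-high value was below each CD133-low value. HOXC6, a thoracic gene, read 4315, 6088, 5615 and 9117, with ratios of -0.38 and -0.58. HOXC8, active at brachial level, read 123, 104, 149 and 136, with ratios of -0.28 and -0.40, so neither came near 2-fold.

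HOXC11 read 79.8, 101.7, 110.0 and 62.9, and HOXC13, a regulator of hair and nail keratins, read 154, 121, 108 and 149. Their CD133 ratios had opposite signs in the 2 pairs, -0.46 and 0.69 for HOXC11 and 0.51 and -0.29 for HOXC13. The median CD133 log2 ratio was -0.42 and -0.49 over the 8 measured HOXC genes and -1.5 and -1.05 over the 7 measured HOXD genes, of which 4 passed the rule. Over all 16 it was -1.08 and -0.98, against 0.00 in each pair over all measured genes. In each pair 14 of the 16 ratios were below 0, against 6791 and 6494 of 14083 for all measured genes.

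**Figure D2:**
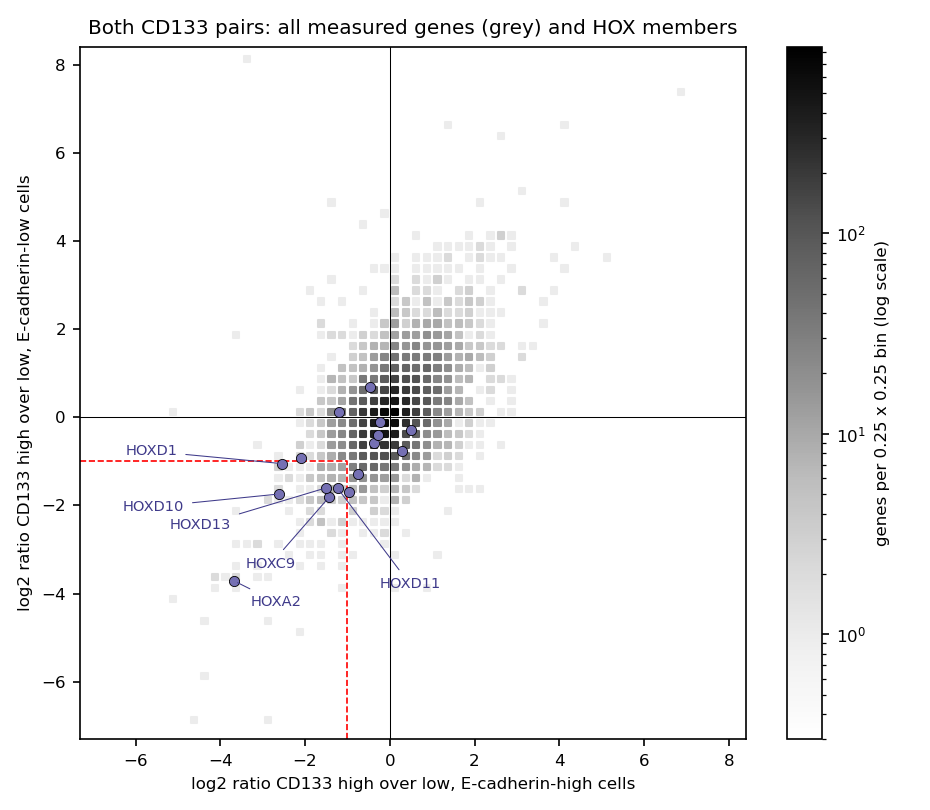
CD133 log2 ratio (high over low) among E-cadherin-high cells on the x axis and among E-cadherin-low cells on the y axis, with all measured genes as grey bins and the 16 measured HOX genes as points. The red dashed lines enclose the region at least 2-fold lower in both pairs, which holds the 6 labelled HOX genes and 1.12% of all genes.

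The antisense and other non-coding transcripts of the clusters were also followed, since most HOXA homeobox genes were not read. Of 16 listed transcripts and neighbouring homeobox genes, 9 had a probe set and 6 were measured. Of these 6, 2 were lower in CD133-high cells and 0 were higher, or 33.3% lower against 1.12% of all measured genes. HOXA-AS2, HOXA-AS3 and HOTTIP, at the probe sets used, exceeded the floor only on the CD133-low arrays. They could therefore not have been called higher, and this share is no support for the HOXA2 result. HOXA-AS2, antisense to the anterior HOXA genes, read 39.9, 41.0, 232.5 and 164. Both CD133-high arrays were below the floor, and the ratios were at least 4.33-fold and 2.72-fold lower. Another HOXA-AS2 probe set was also called lower (log2 ratios of -1.94 and -1.93, both bounds). A further one was not called (-2.04 and -0.46, both bounds), so its probe sets disagreed on the call. HOXA11-AS read 73.9, 92.8, 158 and 226, or 2.14-fold and 2.44-fold lower. HOXA-AS3 (log2 ratios of -1.33 and -0.83) and HOTTIP, an RNA of the posterior HOXA end (-0.69 and -1.32), were not called. All 4 of these ratios are bounds, since both CD133-high arrays were below the floor, and another HOTTIP probe set had 0.50 and 0.41.

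In the HOXD cluster, the antisense RNA HOXD-AS2 read 195, 484, 558 and 539. As for HOXD8, E-cadherin-high CD133-high cells stood below the other 3 groups, and the CD133 ratios were -1.52 and -0.15. HAGLR, a long non-coding RNA beside HOXD1, had ratios of -0.57 and -0.97 at its brightest probe set. Another HAGLR probe set was lower in both pairs, at -1.74 (a bound) and -1.47, so its probe sets disagreed on the call. How probes were assigned to strand was not examined, so reads of a gene and of its antisense partner are not treated as separate evidence.

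Of 19 genes flanking the 3 clusters, all measured, 2 were lower in CD133-high cells and 0 were higher, which is 10.5% lower against the background of 1.12%. SKAP2, an adaptor protein gene next to the anterior end of HOXA, read 496, 368, 6129 and 5251. Both CD133-high arrays were far below both CD133-low arrays, by 12.3-fold and 14.3-fold. CHN1, a Rac GTPase-activating protein gene beyond the posterior end of HOXD, read 250.2, 307, 1978 and 3833, or 7.91-fold and 12.5-fold lower.

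The genes between or beyond them had smaller ratios. MTX2, beside HOXD1, had CD133 log2 ratios of -0.37 and -0.32, LNPK, at the posterior end of HOXD, had -0.04 and -0.39, ATP5MC3 -0.23 and -0.45 and ATF2 -0.08 and 0.36. On the HOXA side, SNX10 had 0.43 and 1.64, HIBADH -0.56 and 0.36, TAX1BP1 -0.50 and -0.46 and JAZF1 0.97 and 1.29. CBX3 (-0.10 and -0.21) and HNRNPA2B1 (-0.14 and -0.27), farther out beyond SNX10, were close to 0. Around HOXC, ATF7 had -0.17 and -0.46, ATP5MC2 0.40 and 0.31, CALCOCO1 0.55 and 0.88, SMUG1 -0.07 and -0.55, CBX5 0.56 and 0.84, HNRNPA1 -0.21 and -0.22 and NFE2 0.00 and 0.10, all under 2-fold. The median over the 19 flanking genes was -0.10 and -0.22. The low values were thus not shared by all genes of these regions.

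**Figure D3:**
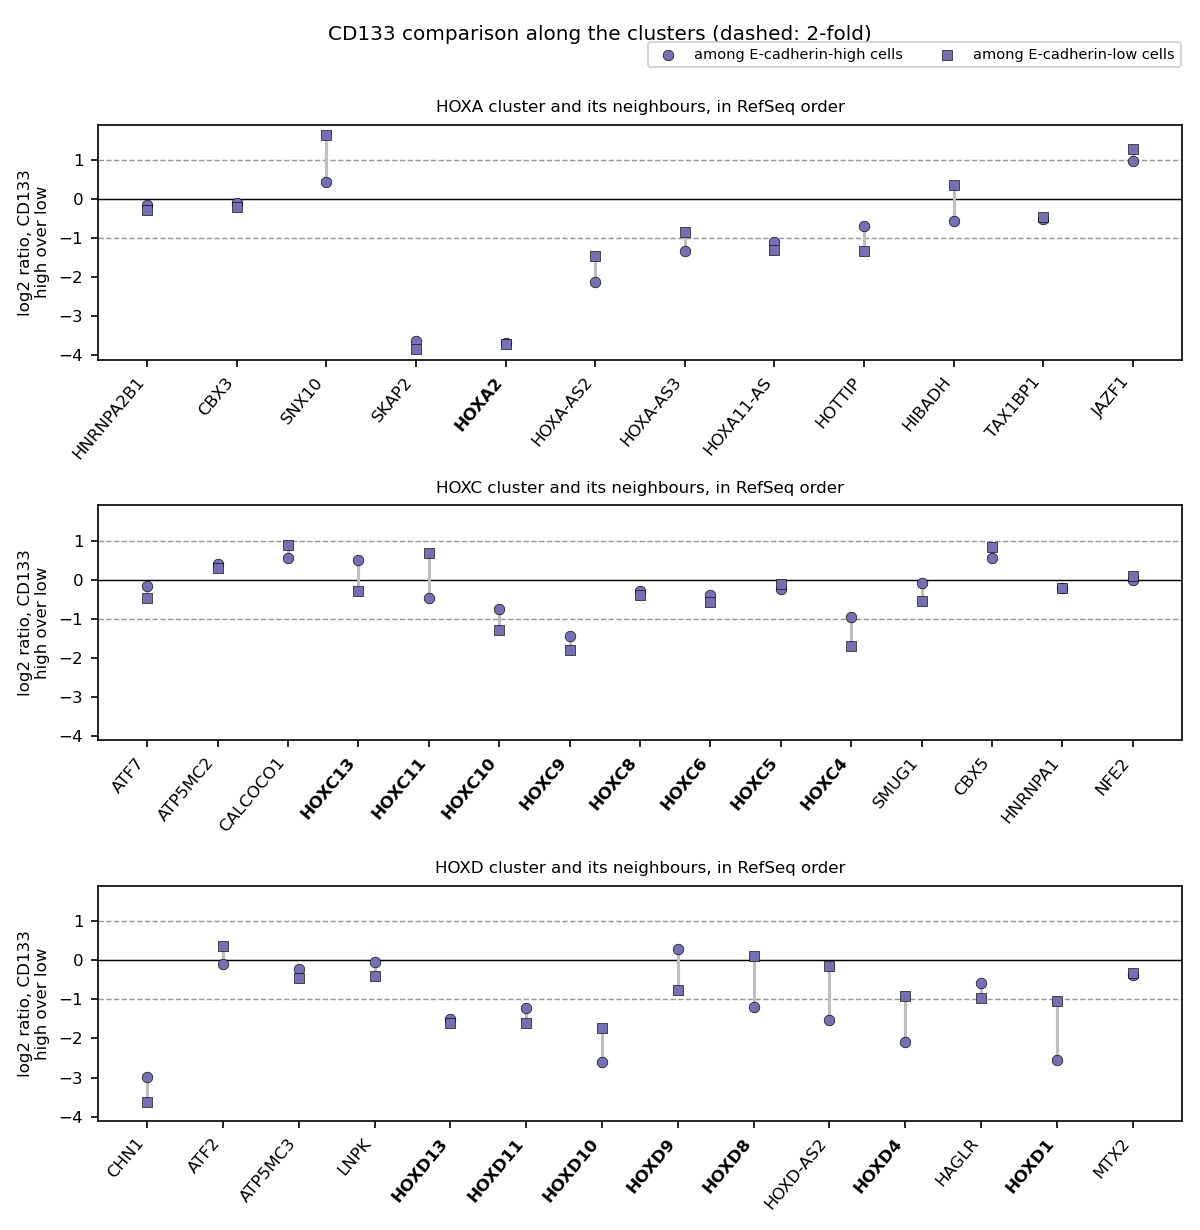
CD133 log2 ratio (high over low) of measured homeobox genes (bold), other cluster transcripts and flanking genes in RefSeq order, with circles for E-cadherin-high and squares for E-cadherin-low cells. SKAP2 and HOXA2 lie side by side below -3, and MTX2 and LNPK, at the ends of HOXD, lie near 0.

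Genes with several probe sets allowed a check within the gene. For HOXD10, a second probe set gave 5.46-fold (a bound) and 2.72-fold lower, and the third was below the floor in all but E-cadherin-low CD133-low cells. For HOXD13, a second probe set gave 4.60-fold and 3.54-fold lower, whereas the third gave 2.34-fold and 1.52-fold and did not pass in both pairs. The other HOXD1 and HOXD9 probe sets were below the floor on all arrays. Of the 26 single-gene probe sets, 21 were measured and 8 were lower and 0 higher in CD133-high cells, against 0.952% lower and 1.85% higher of 32551 measured probe sets. In the E-cadherin comparison 0 were lower and 1 was higher, against 0.402% and 0.384%. Of the SKAP2 probe sets above the floor, 4 had log2 ratios between -3.63 and -3.87 and 1 had 0.59 and 0.37.

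**Figure D4:**
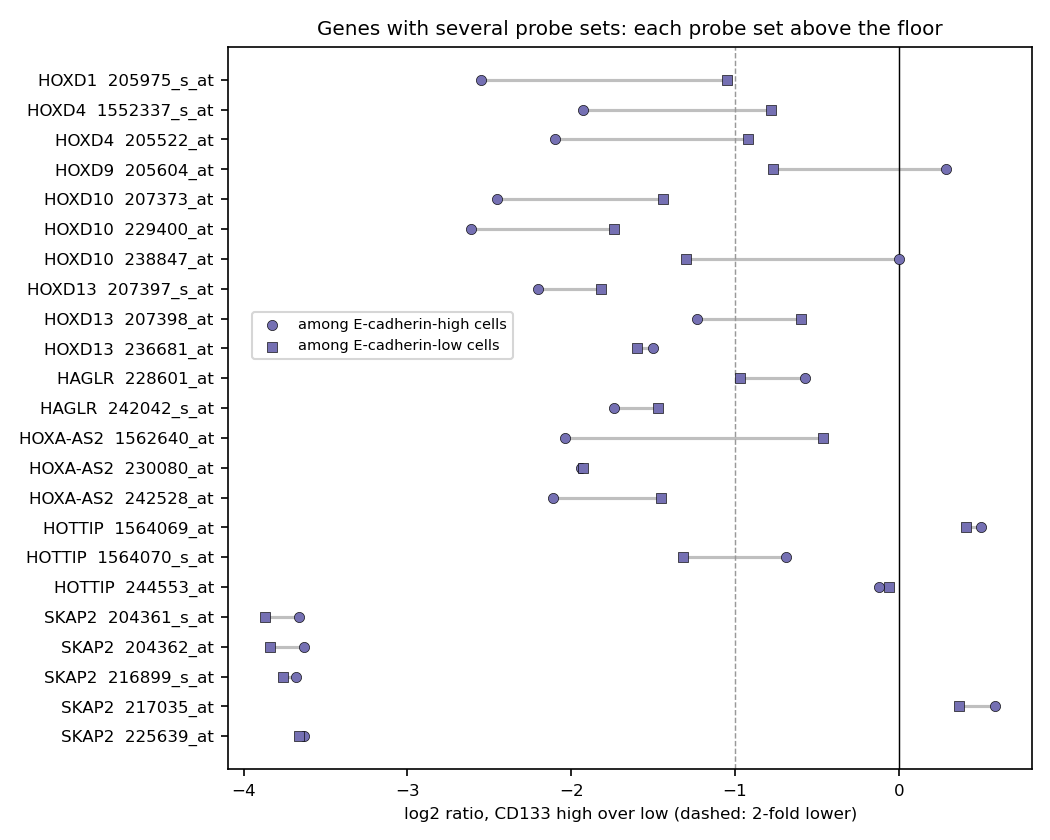
CD133 log2 ratio of each probe set above the floor for genes with several, with circles for E-cadherin-high and squares for E-cadherin-low cells and the dashed line at 2-fold lower. The probe sets of HOXD13 lie on the same side of 0, while those of HOTTIP and SKAP2 do not.

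In the E-cadherin comparison (low over high), 0 of the 16 HOX genes were lower and 1 was higher by at least 2-fold in both pairs, against a background of 0.54% lower and 0.476% higher. The higher gene was HOXC5, a cervical and brachial gene that overlaps HOXC4 and HOXC6, with 19.4, 142.7, 63.5 and 154 and ratios of at least 2.66-fold and 2.43-fold. HOXC5 was near or below the floor in both E-cadherin-high groups. The median E-cadherin log2 ratio was 0.13 and 0.30 over the 16 genes.

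Some HOXD genes passed 2-fold in the CD133-high pair and not in the CD133-low pair. HOXD4 was 3.37-fold, HOXD8 2.51-fold and HOXD10 2.37-fold higher in E-cadherin-low cells of the CD133-high pair, against 1.49-fold, 1.02-fold and 1.29-fold in the CD133-low pair. HOXD13 had ratios of -0.12 and -0.02 on the log2 scale, and HOXA2 had 0.20 in the CD133-low pair, the only one in which it was above the floor. The difference between the pairs was not tested.

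**Figure D5:**
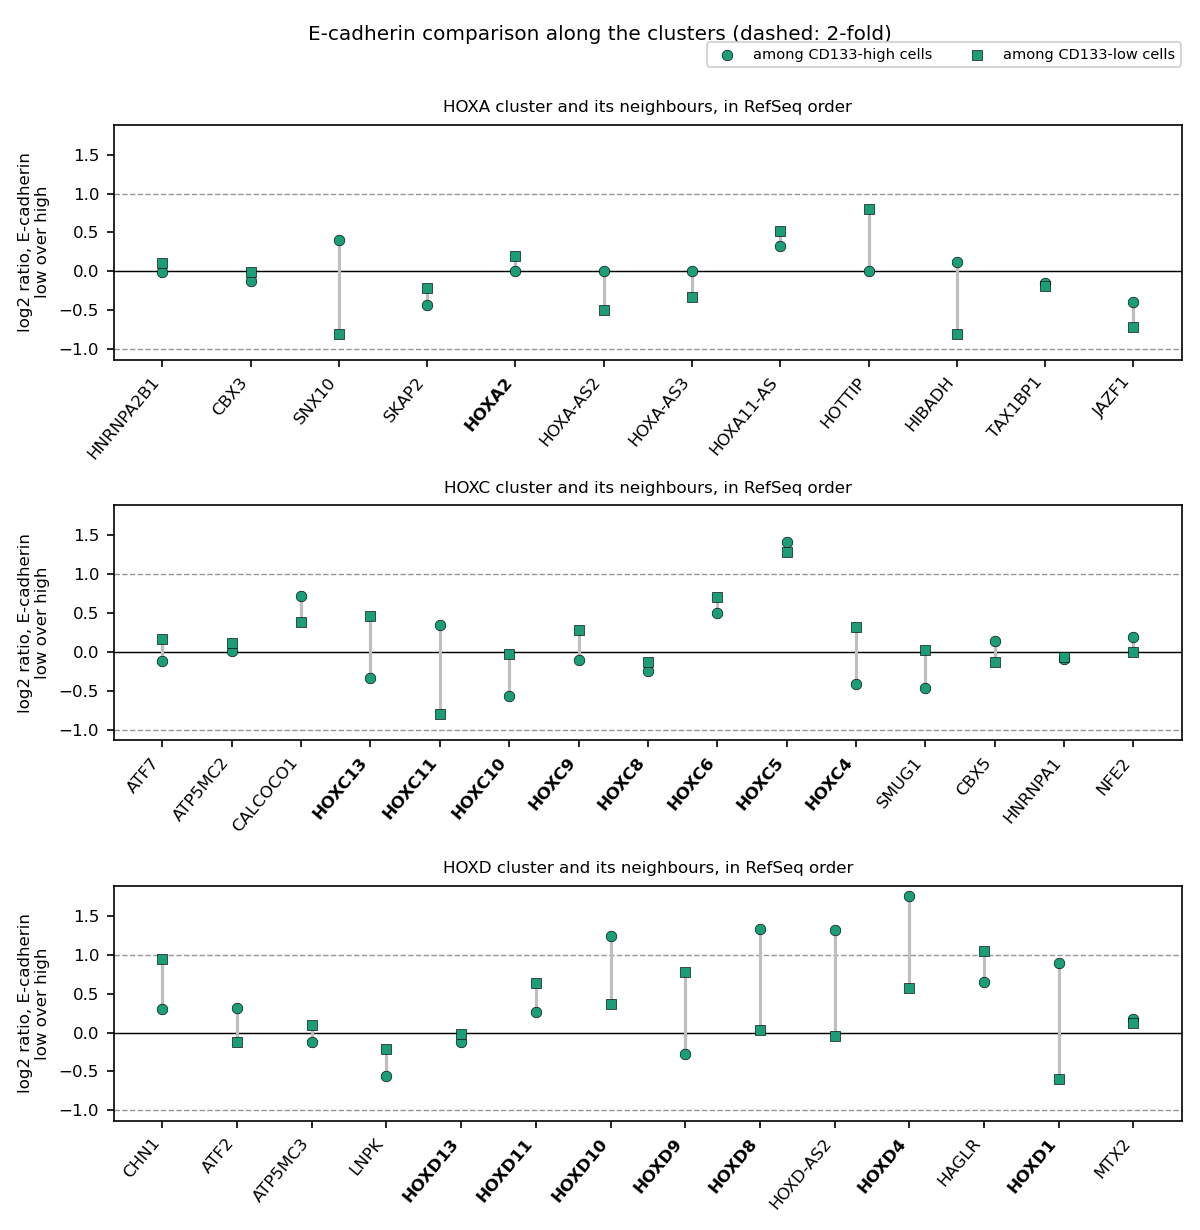
E-cadherin log2 ratio (low over high) along the same genes in RefSeq order, with circles for CD133-high and squares for CD133-low cells. HOXC5 is the single homeobox gene beyond the upper dashed 2-fold line in both pairs.

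The fourth cluster, HOXB, was measured by 9 of 10 genes. Of these, 8 were lower in CD133-high cells, or 88.9% against 1.12% of all measured genes. The median log2 ratios over the 9 genes were -3.66 and -3.52. HOXB6, for example, was at log2 ratios of -5.03 and -4.06. The HOXA, HOXC and HOXD genes thus had 6 of 16 on this side by the same rule, and the difference between these shares was not tested.

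Of the TALE cofactors of HOX proteins, 8 were measured. In CD133-high cells 1 was lower and 1 was higher, against 1.12% and 2.45% of all measured genes. MEIS2 was lower in CD133-high cells (932, 1088, 1965 and 2848), and MEIS3 was higher (204, 145, 58.1 and 47.0, with a bound in 1 pair). PBX3, whose CD133 ratios were -0.38 and -1.67, was not called. By the same rule 0 of 19 measured Polycomb genes and 0 of 13 measured Trithorax and demethylase genes were called in either direction. The count was also 0 for the 5 measured genes of the list of CDX regulators and chromatin loop factors (CTCF, RAD21 and ZNF143). With shares of 1.12% and 2.45% over all measured genes, counts of 0 in lists this short say nothing particular about these regulators. EZH2, the Polycomb methyltransferase, had ratios of -0.12 and -0.79, and KDM6B, a demethylase of the Polycomb mark, had 1.42 and 0.94.

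Of 13 measured retinoid pathway genes, 2 were lower and 0 higher in CD133-high cells, or 15.4% lower against 1.12% of all measured genes. RARB, a retinoic acid receptor that is itself a retinoid target, read 756, 256, 1743 and 1667, or 2.30-fold and 6.52-fold lower. CYP26B1, which breaks down retinoic acid, read 77.6, 148, 272 and 364, or 3.51-fold and 2.46-fold lower. In both genes the CD133-high values lay below the CD133-low values.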

How the data were processed

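Total RNA of 4 sorted PC14 subpopulations was hybridised to 1 biotin-labelled Affymetrix array each. The deposited intensities are linear; per the submitters' processing notes the tool was MAS5 (no version given), and the 2% trimmed mean of each array was 500.1. Genes were named from platform annotation. Of 54675 probe sets, 41097 had 1 symbol, 1801 several and 11777 none.

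Values under the floor (the 50th percentile per array, 62 control probe sets left out) were set to it, and log2 taken. The probe set with the highest mean represented a gene. A call needed a ratio of at least 2-fold in 1 direction in both pairs. Precision is limited by having 1 array per group. The call includes no test. As an alternative, an additive limma fit of both markers (version 3.58.1, R 4.3.3, adjusted p below 0.05, 1 residual degree of freedom) was the only test. Scripts used Python 3.11.15, were tested on simulated data, and drew figures with matplotlib 3.10.9. The RefSeq table (GRCh38.p14) gave gene order and promoters.

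Measured members of the list were named with all 4 values, called genes first, and other lists by their called genes and flanking genes by ratios. Measured cluster transcripts and cell type markers were also given where they were not called. PBX3, EZH2 and KDM6B were not called and were picked outside this rule. The list, the gene lists and the alternatives were chosen with earlier results of these data known. The promoter motifs and the list of other homeobox genes were added after the values were seen.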

Additional observations from a re-analysis of the deposited data

Results flagged for a closer look

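Ratios had opposite signs in the 2 pairs of a comparison for 8 transcripts, and none of these differences was tested. The shares were no higher among the HOX genes than among all measured genes. In the CD133 comparison 4 of 16 measured HOX genes had opposite signs, or 25%, against 30.6% of all measured genes. HOXC11 was at -0.46 and 0.69, HOXC13 at 0.51 and -0.29, HOXD8 at -1.19 and 0.11 and HOXD9 at 0.29 and -0.77 (log2, E-cadherin-high pair first). In the E-cadherin comparison 6 of 16 had opposite signs, or 37.5%, against 41.3% of all measured genes. HOXD1 was at 0.89 and -0.60 (log2, CD133-high pair first), and HOXD-AS2 at 1.32 and -0.05. HOXC4 was at -0.41 and 0.32, HOXC9 at -0.10 and 0.28, HOXC11 at 0.35 and -0.80, HOXC13 at -0.34 and 0.46 and HOXD9 at -0.28 and 0.78. HOXD9 was below the floor in E-cadherin-low CD133-high cells, so its ratios there are bounds.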

How the results depend on the processing

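Of 220 gene values recomputed under other settings, 198 moved by less than the spread between the 2 pairs of that gene, and 22 moved by more. A gene with unlike pairs could thus move far and still count as within its spread. The CD133 log2 ratio of HOXD1 went from -1.80 to -0.90 with the mean over probe sets and counted as within. That of HOXA2 went from -3.69 to -3.72 with quantile normalization and counted as moved. Among the called values 0 changed sign, but HOXD1 fell to 0.00 without shared probe sets. The number of HOX genes lower in CD133-high cells was 6 of 16, against 1.12% of all measured genes. With a 3-fold threshold it was 2 (HOXA2 and HOXD10), against 0.433%. It was 9 with a 1.5-fold threshold (adding HOXC4, HOXC10 and HOXD4), against 3.93% of all genes. Quantile normalization gave 7 (adding HOXD4), against 1.21%. The mean over probe sets gave 5, against 0.649%. Without shared probe sets 13 HOX genes were measured and 5 were lower, against 1.09%. The planned additive limma fit gave 1 (HOXA2), against 28 lower and 27 higher of 14083 genes, and 9 lower at an unadjusted p below 0.05, against 921 of all genes. After its counts had been seen, 2 further fits were added. An intensity trend gave 3 HOX genes (HOXA2, HOXD10 and HOXD13), against 104 lower genes in all, and a trend with robust variances gave 4, against 94. On the simulated data both added fits made more false calls than the planned fit. The cause of the difference in counts was not tested. HOXA2 was lower in 11 of 11 planned settings, HOXD10 in 10, HOXC9, HOXD11 and HOXD13 in 9, and HOXD1 in 7. HOXD1 was lost with the 3-fold threshold, in the limma fit, with the mean over the probe sets of a gene and without probe sets marked as shared. The single higher gene of the E-cadherin comparison, HOXC5, was lost (count 0) under a 65th-percentile floor, under a 3-fold threshold and in each of the 3 limma fits, where 4 HOX genes were higher at an unadjusted p below 0.05, against 478 of all genes in the planned fit and 484 and 441 in the added ones. The median CD133 log2 ratio of the HOX genes (mean of both pairs) was -1.18, and -1.33 with no floor, -1.02 under the 65th-percentile floor, -0.96 with the mean over probe sets and -1.33 without shared probe sets. With equal array medians, the E-cadherin shares over all genes were 0.632% lower and 0.362% higher. Leaving out an array leaves a comparison with 1 pair, so it was not run. Signals near the floor limit HOXC5, HOXC11 and HOXD9.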

Other observations

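Homeobox genes outside the HOX clusters, listed after the data had been seen, gave calls near the background share in the CD133 comparison. Of 106 listed, 59 were measured. In CD133-high cells 1 was lower (1.69%) and 2 were higher, against 1.12% lower and 2.45% higher over all measured genes. IRX2, an Iroquois gene of early lung and limb patterning, read 495, 884, 2468 and 1988, with log2 ratios of -2.32 and -1.17. EMX2, a forebrain and urogenital gene, read 226, 189, 40.4 and 3.3, with both CD133-low arrays below the floor and log2 ratios of at least 1.98 and 1.73. PAX6, a gene of eye and pancreas development, read 144, 153, 65.6 and 38.9, with ratios of 1.14 and 1.42, the second a bound. In the E-cadherin comparison 0 of the 59 passed the rule in either direction, against 0.54% lower and 0.476% higher over all measured genes.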
